A study of Mus musculus with 18 samples.

Results

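The effect of arthritis on gene expression was measured in forepaws of wild-type (WT) mice. The 9 libraries described here, of 18 in the series, were taken by genotype and treatment label: 5 from WT arthritis forepaws and 4 from WT control forepaws. All mice were C57BL/6. The WT mice carry an intact Sema3b, the gene that is lacking in the other 9 libraries (Sema3b-/-, 4 control and 5 arthritis), which entered the filter on low values, the estimates of spread and of sex, and a comparison of the effects of arthritis. The labels name no arthritis model, age or collection time, and do not say whether a library is 1 animal or a pool. Each RNA was read from its 3' end by CEL-seq, in which barcoded RNA is pooled and amplified by in vitro transcription. Levels are normalized counts, that is reads divided by a size factor of the library.

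The labels do not give the sex of the mice, so it was read from Y-linked genes and from Xist, the RNA by which female cells silence 1 X chromosome. Xist stood at 278 to 423 in the 4 WT control libraries and at 580 in WT arthritis replicate 1, and these 5 libraries are read as female. In WT arthritis replicates 2 to 5 Xist stood at 2.55 to 9.60 and Ddx3y, a Y-linked RNA helicase, at 757 to 1037, so these 4 are read as male. Sex and arthritis therefore largely coincide, and each result is given with sex as a term where that ends the call. Every control library has a title that begins with MI, and the titles of WT arthritis replicates 1 to 4 begin with Joint, so whatever the title marks cannot be told apart from arthritis. Total reads were 6086700 to 8179726 in control and 6251174 to 19464892 in arthritis. Mitochondrially encoded genes took 19.9% to 21.1% of normalized counts in control and 39.4%, 27.9%, 18.3%, 21.9% and 24.8% in arthritis replicates 1 to 5. A forepaw holds muscle, skin, cartilage, bone, tendon and nerve: in control, muscle genes took 3.13% to 3.92% of normalized counts, epidermal genes 1.90% to 2.83% and cartilage genes 1.04% to 1.24%. Sema3b, a secreted semaphorin, was present in all 9 libraries, at 44.2 to 67.5 in control and 23.7 to 66.7 in arthritis (log2 fold change -0.39, limma adjusted p = 0.726).

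Inflamed joints recruit neutrophils and monocytes, which arrive through chemokines and sense danger through lectin, Fc and toll-like receptors. Their cytokines act on synovial fibroblasts, which then secrete matrix proteases, and on the liver and local cells, which make acute phase proteins. Bone is lost where osteoclasts outpace osteoblasts, and Wnt antagonists restrain the bone-forming cells. Cells of most tissues also keep a circadian clock, a loop in which CLOCK and ARNTL drive their own repressors through E-box sequences.

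In arthritis, limma called 582 of 13809 genes (4.21%) at an adjusted p under 0.05, 364 higher (2.64%) and 218 lower (1.58%). Only called genes are said to have risen or fallen. The median log2 fold change was 0.68 among genes that rose and -0.86 among genes that fell, against -0.02 over all genes tested. Leaving out 1 WT library moved the count to between 149 (without control replicate 3) and 1112 (without arthritis replicate 2): it was 188, 227 and 263 without control replicates 1, 2 and 4, and 840, 300, 189 and 285 without arthritis replicates 1, 3, 4 and 5. Scaling to library totals without mitochondrial genes turned the balance to 162 higher and 338 lower. Changes of at least 2-fold numbered 106 higher and 83 lower. The groups did not overlap for 321 of the 364 genes that rose and 202 of the 218 that fell, beside 5.82% and 4.71% of all genes tested that did not overlap in those directions. Over all genes tested 6648 of 13809 had a positive log2 fold change. These shares stand behind the counts of each list below, and 1 call in a list is not read as a change of the list. The authors' deposited table called 481 genes, of which 428 are among the 582. With sex as a term 133 genes were called (0.963%), 113 of them among the 582. A lost call with that term does not tell a smaller change from a wider error. For Serpina3n, Ccl9 and Bglap, which all lost it, the log2 fold change went from 1.19 to 0.73, 1.53 to 1.47 and -2.50 to -3.30. A core of 74 genes, 47 higher and 27 lower, was called by limma, by limma with sex as a term, by edgeR and without each WT library in turn, and 61 of them also passed after a trend on transcript GC was removed. The sex term and the loss of a library are separate fits, here and for single genes below. Together they left 20, 19, 13 and 33 calls without control replicates 1 to 4. Without arthritis replicates 1 to 5 they left 95, 227, 125, 33 and 37, so most of the core does not pass every joint fit. Because a forepaw holds many tissues, more cells of a type and more RNA per cell cannot be told apart in any of these values.

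Saa3, Cxcl5 and Il1b were among the named genes with the largest rises. Saa3, an acute phase protein made in inflamed tissue, stood at 6.63, 28.0, 33.8 and 14.5 in control replicates 1 to 4 and at 446, 12.7, 3575, 3991 and 1645 in arthritis replicates 1 to 5 (log2 fold change 5.19, SE 1.27, limma adjusted p = 0.034). Il1b (mm10 chr2:129364570-129371139, minus strand), the cytokine interleukin-1 beta, stood at 11.1 to 35.4 in control and at 35.5, 45.8, 801, 937 and 339 in arthritis (log2 fold change 3.37, SE 0.88, limma adjusted p = 0.0436). Cxcl5, a neutrophil-attracting chemokine, stood at 2.71 to 20.6 in control and at 109, 8.72, 723, 668 and 489 in arthritis (log2 fold change 4.02, SE 1.06, limma adjusted p = 0.046). Replicates 3, 4 and 5 were high for all 3 genes, while replicate 2 lay within the control range for Saa3 and Cxcl5, and replicate 1 lay just above it for Il1b. These 3 calls ended without any 1 of control replicates 1 to 4 or arthritis replicates 3 to 5, as did 27 of the 110 called genes that are named, and with sex as a term (limma adjusted p 0.18 to 0.26).

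Of 20 genes of the myeloid lectin and Fc receptor list, 9 rose, none fell and all 20 had a positive log2 fold change, with a median of 1.31 against -0.02 over all genes. Clec4d, a C-type lectin that senses fungal and mycobacterial glycolipids, stood at 28.7, 31.6, 49.7 and 25.6 in control and 145, 83.3, 734, 1357 and 440 in arthritis (log2 fold change 3.38, SE 0.65, limma adjusted p = 0.0116). Fcer1g, the signalling chain shared by many of these receptors, stood at 1646 to 1908 in control and 2553, 2972, 4712, 6128 and 5069 in arthritis (log2 fold change 1.20, SE 0.22, limma adjusted p = 0.00804). Fcgr3, an activating receptor for antibody, stood at 190 to 274 in control and 370, 377, 797, 947 and 790 in arthritis (log2 fold change 1.43, SE 0.28, limma adjusted p = 0.0111). Every arthritis library lay above every control library for these 3 genes and for Msr1, a scavenger receptor (log2 fold change 1.90). Clec4a2 and Clec4a3, lectins of dendritic and myeloid cells, rose by 1.18 and 1.31 on the log2 scale. The calls of Clec4d, Fcer1g, Fcgr3 and Msr1 held without any 1 WT library, that of Clec4a2 ended without control replicate 4, and that of Clec4a3 without control replicates 1 to 4 or arthritis replicates 3 to 5. With sex as a term none of these 6 was called (limma adjusted p 0.063 to 0.28).

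**Figure D1:**
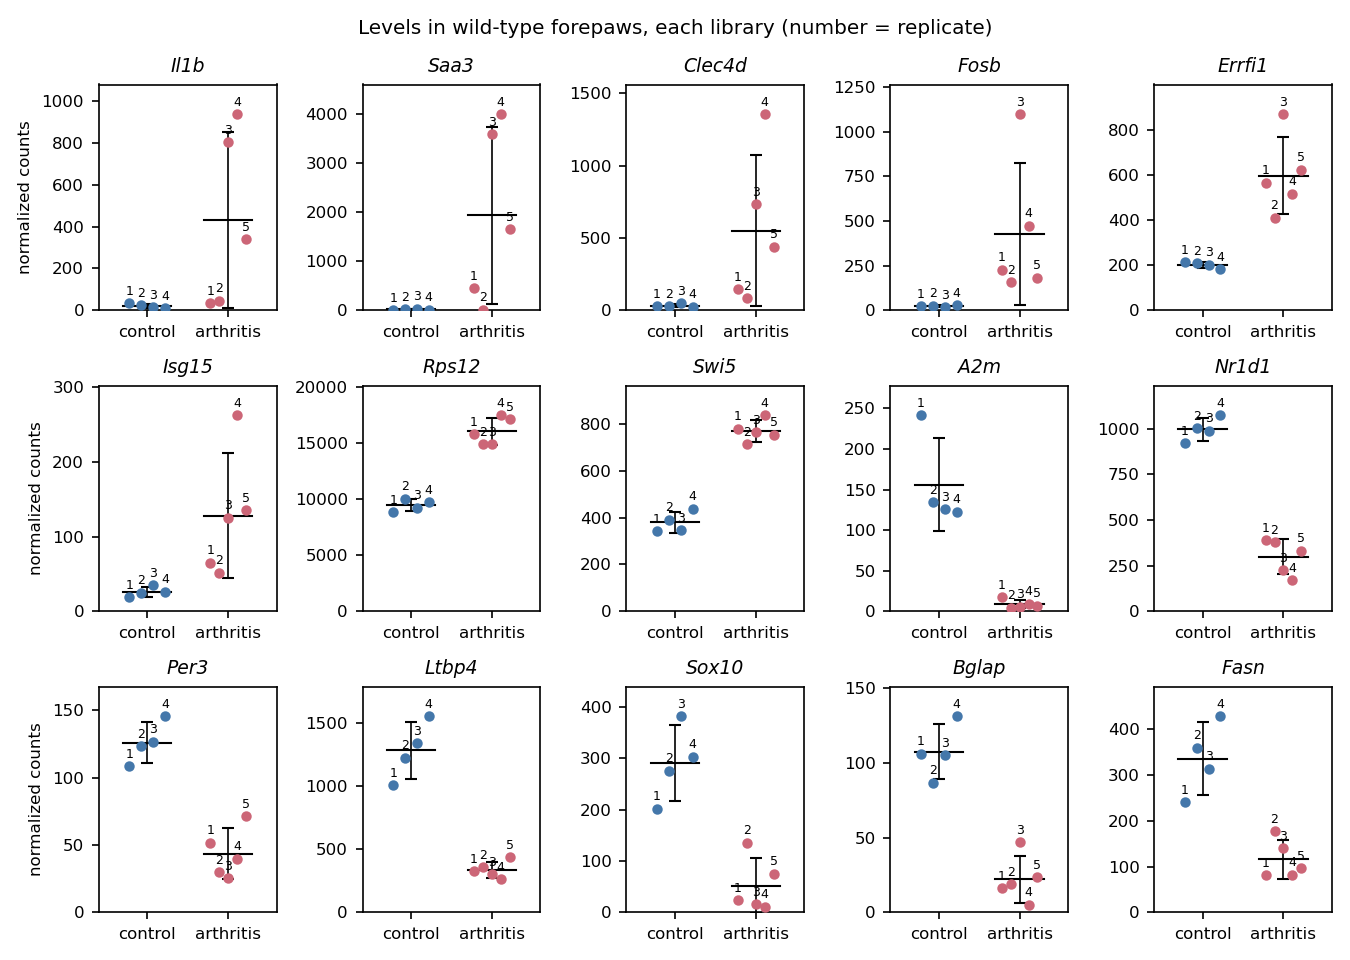
Normalized counts of 15 named genes in the 4 WT control (blue) and 5 WT arthritis (red) libraries, 1 point a library numbered by replicate, with the mean as a line and the SD as a bar, on linear axes from 0. The genes that fell (such as Ltbp4, 1008 to 1554 in control and 261 to 435 in arthritis) vary less among arthritis libraries than Il1b and Saa3, which are high in replicates 3 to 5.

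Of 26 monocyte and macrophage genes 4 rose and 24 had a positive log2 fold change (median 0.66). Ccr2, the receptor that guides monocytes out of the blood, stood at 160, 205, 186 and 180 in control and 308, 290, 502, 522 and 465 in arthritis (log2 fold change 1.15, SE 0.21, limma adjusted p = 0.00762). Lyz2, the lysozyme of macrophages and neutrophils, stood at 172 to 221 in control and 389, 403, 944, 1078 and 832 in arthritis (log2 fold change 1.72, SE 0.32, limma adjusted p = 0.00767). Both groups were apart in all 9 libraries, and arthritis replicates 1 and 2 were the lowest of the arthritis group. Mrc1 and Ms4a7, membrane proteins of tissue macrophages, rose by 0.66 and 2.34 on the log2 scale. Of 21 neutrophil genes 5 rose: Clec4d, Hdc, Cxcr2, Fpr2 and Trem1 (list median 1.29). Trem1, a receptor that amplifies inflammation, stood at 0.853 to 12.2 in control and 16.3, 21.4, 160, 282 and 86.2 in arthritis (log2 fold change 3.85, SE 0.74, limma adjusted p = 0.00991). Its lowest value, in control replicate 4, lay below the 3 reads that a count of 0 allows (2.56 normalized counts there). The whole neutrophil list took 0.151% to 0.242% of normalized counts in control and 0.0949%, 0.914%, 0.611%, 0.385% and 0.614% in arthritis, so replicate 1 lay below the controls and replicate 2, which was low for Il1b, Saa3 and Cxcl5, was the highest. Calls of Hdc, Cxcr2, Fpr2, Mrc1 and Ms4a7 ended without some single WT libraries (limma adjusted p up to 0.146 over the named genes), and no gene of this paragraph was called with sex as a term.

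Among secreted signals, 3 of 9 monocyte-attracting chemokines rose (median 1.67), 1 of 6 neutrophil-attracting chemokines (Cxcl5; median 2.68), none of 11 other chemokines (median 0.11) and 1 of 21 proinflammatory cytokines (Il1b; median 0.25). Ccl8, a ligand of monocyte receptors, stood at 158, 241, 195 and 172 in control and 445, 473, 2212, 4940 and 3049 in arthritis (log2 fold change 2.96, SE 0.63, limma adjusted p = 0.0183). Ccl9, a ligand of CCR1, stood at 409 to 610 in control and 1063, 804, 2070, 1909 and 2038 in arthritis (log2 fold change 1.53, SE 0.29, limma adjusted p = 0.00946). Ccl6, of the same family, rose by 1.44 on the log2 scale. The 3 chemokines did not overlap between the groups, and replicates 3 to 5 held the highest levels. In the neutrophil-attracting list the median difference from control was 0.61 and -0.32 on the log2 scale in arthritis replicates 1 and 2, and 4.92, 4.13 and 3.98 in replicates 3 to 5. The call of Ccl8 ended without control replicate 1, 3 or 4, and Ccl9 kept its call without any 1 WT library. The call of Ccl6 ended without control replicates 1 to 4 or arthritis replicates 3 to 5. None of the 3 was called with sex as a term (limma adjusted p = 0.13 for Ccl8, 0.077 for Ccl9 and 0.21 for Ccl6).

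Sensors and feedback regulators rose in part. Of 15 toll-like receptor and inflammasome genes 4 rose (Tlr2, Tlr7, Tlr13 and the inflammatory caspase Casp4; median 0.87), and of 22 NF-kB targets and feedback genes 3 rose (Nfkbia, Socs3 and Cebpd; median 0.45). Nfkbia, which encodes the inhibitor that holds NF-kB in the cytoplasm, stood at 665, 705, 740 and 683 in control and 1014, 1001, 1453, 1399 and 1396 in arthritis (log2 fold change 0.82, SE 0.15, limma adjusted p = 0.00672). All 5 arthritis libraries lay above all controls, and the call held without any 1 WT library. Cebpd, a transcription factor of the acute phase, overlapped: arthritis replicate 1, at 188, lay within the control range of 164 to 216. Socs3, a brake on cytokine receptors, stood at 80.1 to 93.8 in control and 98.6 to 696 in arthritis. Calls of Tlr2, Tlr7, Tlr13, Casp4, Socs3 and Cebpd each ended without at least 2 single WT libraries, control replicate 1 among them, and no gene of this paragraph was called with sex as a term.

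In the acute phase list of 14 genes 6 rose and 1, A2m, fell (median 1.03). Ptx3, a long pentraxin released by stromal and myeloid cells, stood at 18.8 to 25.3 in control and 79.8, 28.8, 138, 231 and 84.9 in arthritis (log2 fold change 2.03, SE 0.43, limma adjusted p = 0.0143). Hp, which binds free haemoglobin, stood at 265, 356, 280 and 289 in control and 374, 1626, 3039, 3201 and 2121 in arthritis (log2 fold change 2.48, SE 0.58, limma adjusted p = 0.0278). Slpi, an inhibitor of neutrophil elastase, and Serpina3n, a serine protease inhibitor, rose by 2.25 and 1.19 on the log2 scale. Ptx3 kept its call without any 1 WT library, while those of Hp, Slpi and Serpina3n ended without control replicates 1 to 4 or arthritis replicates 3 to 5, and all 4 ended with sex as a term. None of 17 complement genes was called (median 0.51), nor any of 8 MHC class II genes (median 0.24).

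Of 26 interferon-stimulated genes 3 rose and 23 had a positive log2 fold change (median 0.56). The promoters of Isg15 and Bst2, which both rose, are shown because they hold the interferon-stimulated response element (ISRE). The windows are the RefSeq stretches from 250 bases before to 50 bases after the start on GRCm38.p6, for Isg15 chr4:156200769-156201068 and for Bst2 chr8:71537423-71537722, both on the minus strand. Capitals mark overlapping matches to the ISRE, searched as a pair of TTTC blocks with 2 bases of any kind between them, and read here on the opposite strand as GAAA blocks.
Isg15: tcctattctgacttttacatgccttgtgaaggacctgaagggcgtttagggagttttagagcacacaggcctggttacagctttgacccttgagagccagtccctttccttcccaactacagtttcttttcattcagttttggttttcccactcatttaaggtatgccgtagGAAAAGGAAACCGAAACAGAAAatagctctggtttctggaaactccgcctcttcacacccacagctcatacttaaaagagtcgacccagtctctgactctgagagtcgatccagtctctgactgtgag
Bst2: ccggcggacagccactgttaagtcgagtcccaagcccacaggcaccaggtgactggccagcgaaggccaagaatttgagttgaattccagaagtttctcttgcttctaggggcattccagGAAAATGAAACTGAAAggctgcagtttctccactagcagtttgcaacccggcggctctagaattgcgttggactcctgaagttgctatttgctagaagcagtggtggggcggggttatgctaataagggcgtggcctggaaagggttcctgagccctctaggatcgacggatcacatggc
The motif was searched on both strands. It was held by 11 of the 19 interferon-stimulated genes with a promoter (57.9%), against 3.71% of 10274 tested genes with a promoter and 3.44% of all 32851 windows. Of these 11 holders only Isg15 and Bst2 were called, and Ifi27l2a, which also rose, is not a holder. Genes that rose held the motif in 5.11%. A match is a description of the sequence only. Isg15, a ubiquitin-like protein, stood at 18.8, 25.3, 34.7 and 26.4 in control and 65.1, 51.9, 125, 263 and 136 in arthritis (log2 fold change 2.04, SE 0.45, limma adjusted p = 0.0175). Bst2, which tethers budding virus particles to the cell, stood at 40.9, 65.0, 86.3 and 85.3 in control and 127, 90.3, 254, 344 and 273 in arthritis (log2 fold change 1.53, SE 0.36, limma adjusted p = 0.0262). Ifi27l2a, another interferon-stimulated gene, stood at 187 to 440 in control and 709 to 1873 in arthritis (log2 fold change 1.60, limma adjusted p = 0.0143). The groups were apart for all 3, and replicate 2 was the lowest arthritis library of each. Their calls ended without control replicate 1, for Isg15 also without control replicate 2, for Bst2 also without control replicates 2 and 3 or arthritis replicates 3 to 5, and with sex as a term (limma adjusted p 0.13 to 0.25).

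Matrix and lipid mediator enzymes showed single large changes. Mmp3, stromelysin, a protease of activated synovial fibroblasts, stood at 132, 100, 98.5 and 157 in control and 454, 130, 2637, 2760 and 1690 in arthritis (log2 fold change 2.96, SE 0.72, limma adjusted p = 0.0327), and replicate 2 lay within the control range. Of 15 matrix metalloproteinase genes, Mmp3 and Mmp19 rose and Mmp15 fell (median 0.44), and of 14 ADAMTS genes, Adamts1 rose and Adamtsl4 fell (median 0.32). Tnfaip6, a hyaluronan-binding protein of inflamed synovium, stood at 33.4 to 55.4 in control and 76.9, 67.2, 1558, 1158 and 441 in arthritis, and was the only called gene among 20 of the synovial fibroblast list (median 0.14). Of 17 prostaglandin and leukotriene genes 3 rose. Ptgs2, the inducible cyclooxygenase, was listed at 0 to 2.21 in control, below the 3 reads that a count of 0 allows, and at 2.96, 15.3, 49.4, 29.8 and 10.8 in arthritis (log2 fold change of the value plus 1, 3.16, SE 0.65, limma adjusted p = 0.0125). The value in arthritis replicate 1 also lay below 3 reads, which is 4.44 normalized counts in that library. Alox5ap, needed for leukotriene synthesis, stood at 454 to 488 in control and 716 to 1383 in arthritis, and Ptger2, a receptor for prostaglandin E2, rose by 2.08 on the log2 scale. Each call of this paragraph ended with sex as a term, and each ended without control replicate 3. For Ptgs2 that was the only WT library whose loss ended the call, while the others ended without further single libraries too.

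**Figure D2:**
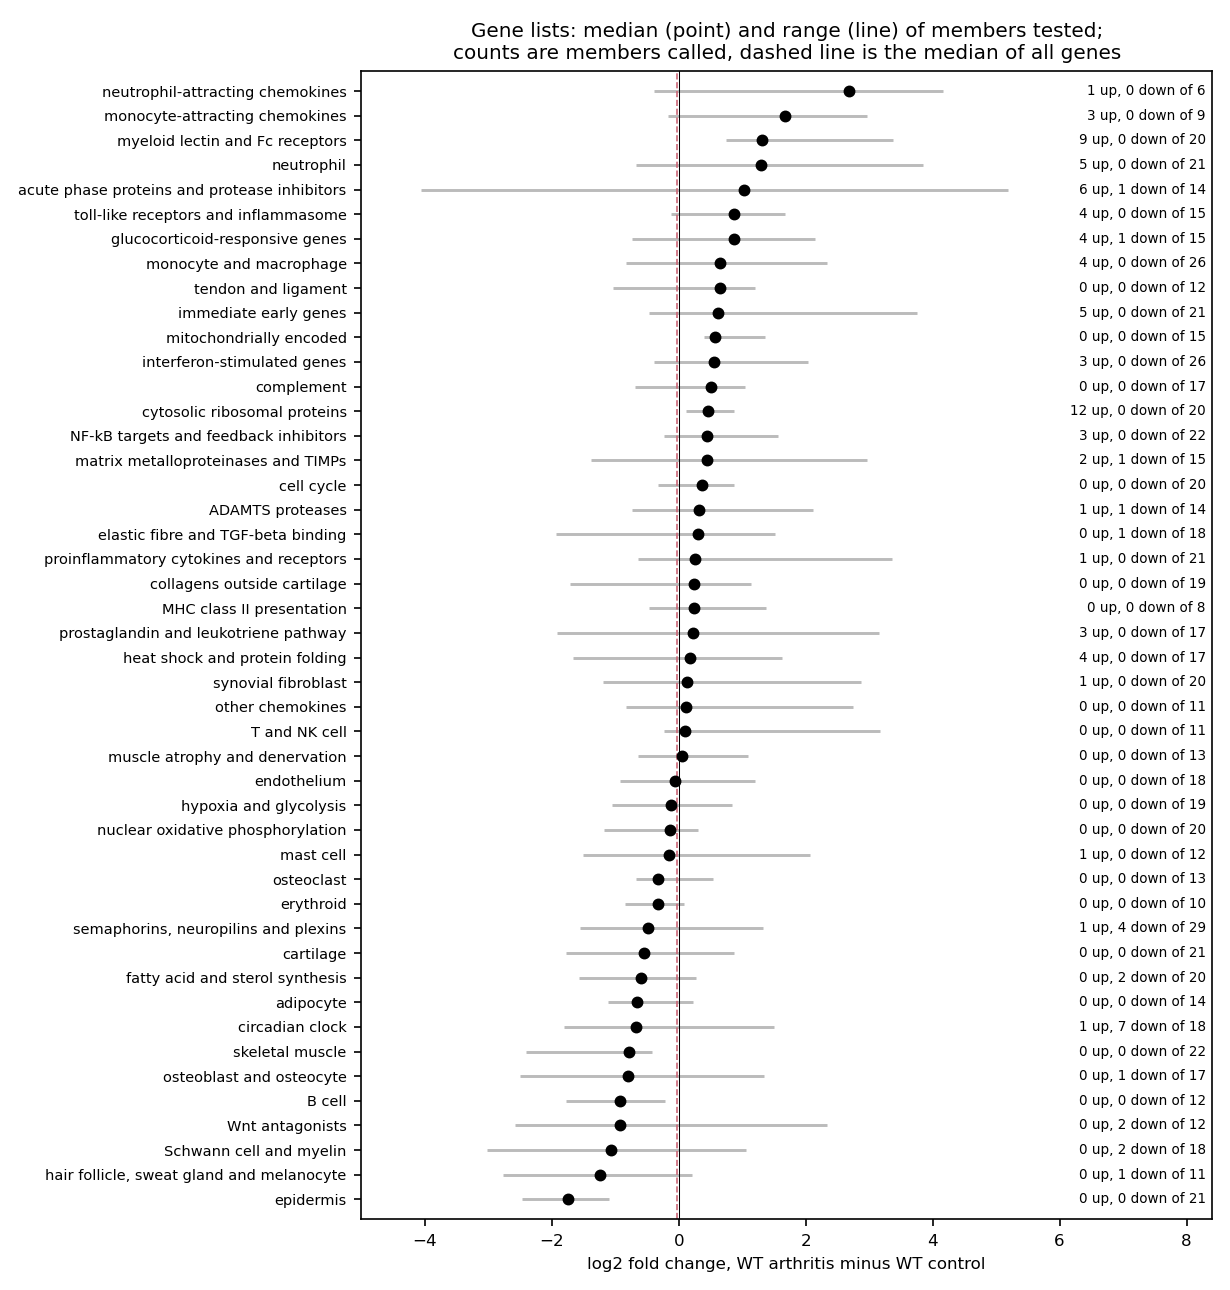
Median (point) and range (line) of the log2 fold change, WT arthritis minus WT control, of the tested members of each gene list, with the members called at the right and the median of all genes as a dashed line. Ribosomal protein genes lie wholly above 0 with 12 of 20 called, and muscle and epidermal genes lie wholly below 0 with none called.

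Immediate early genes are switched on within minutes of stimulation. Of 21 tested, 5 rose, none fell, 19 had a positive log2 fold change and 11 did not overlap between the groups (median 0.63). Over all genes tested 2.64% rose and 5.82% lay wholly above control. The promoters of Nr4a1 (chr15:101266596-101266895, plus strand) and Errfi1 (chr4:150854820-150855119, plus strand) are shown for their cyclic AMP response elements (CRE), on GRCm38.p6 from RefSeq. Capitals mark CGTCA, which is the CRE core TGACG on the other strand, in Nr4a1, and the full element TGACGTCA in Errfi1, a gene of the glucocorticoid list whose other RefSeq window (chr4:150853546-150853845) held neither form.
Nr4a1: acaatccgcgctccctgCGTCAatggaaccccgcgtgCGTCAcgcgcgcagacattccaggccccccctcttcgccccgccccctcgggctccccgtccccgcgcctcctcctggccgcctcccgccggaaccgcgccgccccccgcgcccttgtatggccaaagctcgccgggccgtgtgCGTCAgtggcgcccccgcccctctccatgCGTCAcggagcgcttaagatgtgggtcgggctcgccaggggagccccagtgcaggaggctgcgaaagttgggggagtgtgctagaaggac
Errfi1: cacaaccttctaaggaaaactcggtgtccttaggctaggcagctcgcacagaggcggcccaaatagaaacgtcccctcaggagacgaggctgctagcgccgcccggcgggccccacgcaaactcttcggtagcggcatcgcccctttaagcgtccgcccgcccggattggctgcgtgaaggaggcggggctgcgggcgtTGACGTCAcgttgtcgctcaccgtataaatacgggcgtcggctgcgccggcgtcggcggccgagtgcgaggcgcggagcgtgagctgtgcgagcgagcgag
Searched on both strands, the core was found in 12 of 18 immediate early genes with a promoter (66.7%) and the full element in 3 of 18, against 33.7% and 3.33% of tested genes and 20.8% and 1.79% of all windows. The shares were alike, 61.5% and 15.4%, in 13 cytosolic ribosomal protein genes, and genes that rose stood at 34.3% and 3.65%. Jun and Klf6, which rose, are not among the holders of the core. A match is a description of the sequence only. The core lies within the full element, so matches overlap. Fosb (mm10 chr7:19302696-19310051, minus strand), a subunit of AP-1, stood at 22.1, 26.2, 16.9 and 28.1 in control and 228, 157, 1098, 473 and 183 in arthritis (log2 fold change 3.75, SE 0.87, limma adjusted p = 0.0266). Atf3, a stress-induced repressor, stood at 42.0, 84.8, 29.1 and 45.2 in control and 138, 150, 680, 326 and 164 in arthritis (log2 fold change 2.32, SE 0.45, limma adjusted p = 0.0101). Nr4a1, an orphan nuclear receptor, stood at 84.0, 111, 107 and 114 in control and 253, 358, 1142, 671 and 402 in arthritis (log2 fold change 2.23, SE 0.58, limma adjusted p = 0.0413). Every arthritis library lay above every control library for these 3 genes, and replicate 3 was the highest in each. Jun and Klf6 rose by 0.67 and 0.63 on the log2 scale. Atf3 kept its call without any 1 WT library, while Fosb, Jun and Klf6 lost theirs without control replicates 1 to 4 or arthritis replicates 3 and 4, and Nr4a1 also without arthritis replicate 5. None was called with sex as a term (limma adjusted p 0.074 to 0.19).

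Of 15 genes that respond to glucocorticoids, the adrenal stress hormones, 4 rose (Errfi1, Sgk1, Mt1 and Mt2) and 1 fell (Cdkn1a), 13 had a positive log2 fold change (median 0.87), and the list median in single arthritis replicates lay between 0.67 and 1.07 above control. Errfi1 (mm10 chr4:150853919-150868892, plus strand), which inhibits the EGF receptor, stood at 214, 208, 203 and 182 in control and 565, 411, 869, 517 and 622 in arthritis (log2 fold change 1.52, SE 0.20, limma adjusted p = 0.000811). Sgk1, a kinase that acts on ion channels, stood at 848, 967, 953 and 488 in control and 1699, 1130, 2807, 1875 and 1877 in arthritis (log2 fold change 1.20, SE 0.24, limma adjusted p = 0.0122). Both were apart in all 9 libraries, the female arthritis library included, and both kept the call without any 1 WT library and with sex as a term (limma adjusted p = 0.02 and 0.038). Mt1 and Mt2, metal-binding metallothioneins, rose by 0.93 and 1.05 on the log2 scale, and their close similarity leaves the share of each uncertain near the 3' end. Cdkn1a, an inhibitor of the cell cycle, stood at 1815 to 1992 in control and 952 to 1424 in arthritis (log2 fold change -0.74, limma adjusted p = 0.0379). The calls of Mt1, Mt2 and Cdkn1a ended with sex as a term, and those of Mt2 and Cdkn1a without several single WT libraries, control replicate 3 among them.

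Of the 47 lists, that of clock genes held the most falls. Of 18 tested 7 fell and 1 rose, 13 had a negative log2 fold change, and the median was -0.67. The promoters of Per3 (chr4:151044616-151044915, minus strand) and Tef (chr15:81811164-81811463, plus strand) are shown because each holds a clock element, on GRCm38.p6 from RefSeq. Capitals mark the D-box TTATGNAA, bound by DBP, TEF and HLF, in Per3 and the E-box CACGTG in Tef, whose other RefSeq window (chr15:81802423-81802722) holds it too.
Per3: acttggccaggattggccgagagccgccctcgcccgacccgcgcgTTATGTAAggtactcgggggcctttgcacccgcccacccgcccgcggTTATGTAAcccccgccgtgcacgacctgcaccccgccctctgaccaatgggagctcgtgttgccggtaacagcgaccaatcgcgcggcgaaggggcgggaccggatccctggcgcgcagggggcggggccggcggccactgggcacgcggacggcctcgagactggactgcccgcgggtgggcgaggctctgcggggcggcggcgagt
Tef: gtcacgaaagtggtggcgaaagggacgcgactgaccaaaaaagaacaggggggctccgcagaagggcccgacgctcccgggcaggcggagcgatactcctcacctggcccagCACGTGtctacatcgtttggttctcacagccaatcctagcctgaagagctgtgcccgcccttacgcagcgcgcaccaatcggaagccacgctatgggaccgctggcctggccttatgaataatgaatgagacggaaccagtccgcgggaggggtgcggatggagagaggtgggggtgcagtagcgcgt
Searched on both strands, the E-box was held by 4 of 14 clock genes with a promoter and the D-box by 2 of 14, against 11.4% and 2.72% of tested genes and 7.15% and 3.39% of all windows. The E-box holders were Bhlhe41, Tef, Per1 and Cry1, and the D-box holders Per3 and Per1. Per1 and Cry1 were not called, and Nr1d1 and Dbp, which fell, are not among the holders. Genes that fell held the 2 elements in 10.6% and 3.11%. A match is a description of the sequence only. Nr1d1 (mm10 chr11:98767932-98775333, minus strand), the repressor REV-ERB alpha, stood at 921, 1003, 989 and 1075 in control and 389, 378, 226, 169 and 333 in arthritis (log2 fold change -1.80, SE 0.28, limma adjusted p = 0.00425). Per3, a period gene, stood at 108, 124, 127 and 146 in control and 51.8, 29.7, 25.3, 40.0 and 71.6 in arthritis (log2 fold change -1.60, SE 0.28, limma adjusted p = 0.00616). Tef stood at 525, 593, 542 and 609 in control and 250, 260, 152, 267 and 326 in arthritis (log2 fold change -1.21, SE 0.22, limma adjusted p = 0.0076). Every arthritis library, of either sex, lay below every control library for these 3 genes. Dbp, the partner of Tef, Gm129, the repressor also called Ciart, and Bhlhe41 fell by 1.40, 1.46 and 0.82 on the log2 scale. Per2 also fell (log2 fold change -1.12, limma adjusted p = 0.0484) and Nfil3, which represses D-box genes, rose (1.50, limma adjusted p = 0.0399); both lie outside the naming rule and were chosen after their values were seen. The core activators Arntl and Clock, at 0.15 and 0.01 on the log2 scale, were not called, nor was Per1, at 61.4 to 103 in control and 104 to 142 in arthritis. Nr1d1, Per3 and Tef kept their calls without any 1 WT library, and Nr1d1 alone of the named clock genes kept it with sex as a term (limma adjusted p = 0.041). The calls of Dbp, Gm129 and Bhlhe41 ended without arthritis replicate 4 or control replicates 2 to 4, among others. The labels give no time of collection, so its part in these values was not tested.

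**Figure D3:**
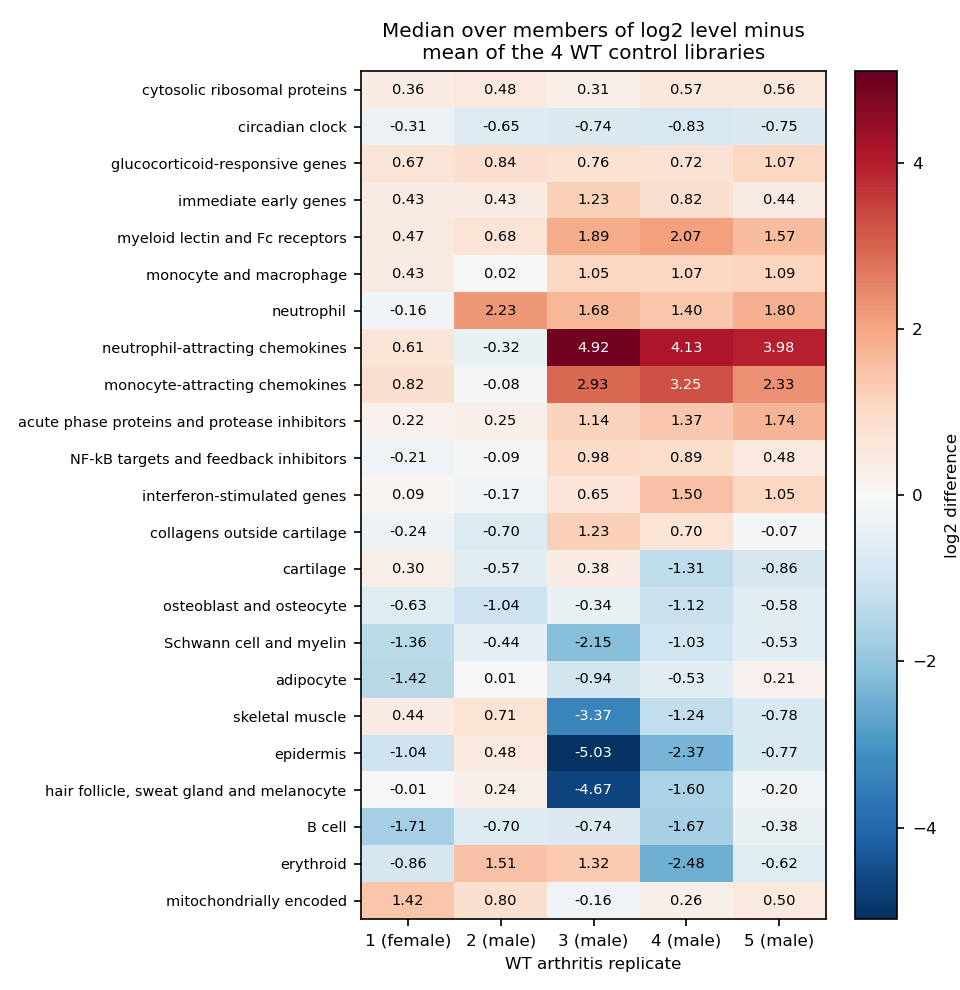
Heat map of the median over list members of the log2 level minus the mean of the 4 WT control libraries, 1 column for each WT arthritis library and 1 row a list, red above 0 and blue below. The neutrophil-attracting chemokine list stands at 0.61 and -0.32 in replicates 1 and 2 and at 3.98 to 4.92 in replicates 3 to 5, while the clock list is negative (-0.31 to -0.83) and the glucocorticoid list positive (0.67 to 1.07) in all 5 libraries.

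Of 20 cytosolic ribosomal protein genes in the list 12 rose, none fell, all 20 had a positive log2 fold change, and 14 did not overlap between the groups (median 0.46), beside 2.64% of all genes tested that rose and 5.82% that lay wholly above control. Rps12 (mm10 chr10:23785183-23787275, minus strand), a protein of the small subunit, stood at 8857, 10030, 9228 and 9753 in control and 15790, 14880, 14880, 17490 and 17090 in arthritis (log2 fold change 0.76, SE 0.09, limma adjusted p = 0.000439). All 5 arthritis libraries lay above all 4 controls, which are all female. The call held without any 1 WT library and with sex as a term (limma adjusted p = 0.0081). Over the family found by name, a choice made after values were seen, 53 of 79 rose and 77 had a positive log2 fold change (median 0.49). Scaling to library totals without mitochondrial genes left a median of 0.39 and 31 calls, and a sex term left 27 calls. Of all normalized counts, mitochondrial ones included, the list of 20 took 2.168% to 2.215% in control. In arthritis replicates 1 to 5 it took 1.985%, 2.465%, 2.591%, 2.873% and 2.874%, so the female library, replicate 1, lay below every control by this measure. Ribosomal protein genes have many processed pseudogenes, so their single values are uncertain to the extent that reads were shared. Swi5, a DNA repair protein of similar short length, stood at 343, 391, 346 and 437 in control and 779, 712, 765, 837 and 754 in arthritis (log2 fold change 1.02, SE 0.12, limma adjusted p = 0.000439). Of 17 heat shock genes 4 rose: Hspe1, Hsp90aa1, Hspa8 and Hmox1, the last an enzyme of heme breakdown, by 0.69, 0.67, 0.43 and 1.62 on the log2 scale. Hspa8 and Hmox1 were not called with sex as a term, Hspe1 and Hsp90aa1 lost the call without control replicate 3, Hmox1 without control replicate 1, and Hspa8 without arthritis replicate 4 or control replicates 1 to 4.

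The deepest fall was in A2m (mm10 chr6:121635376-121679227, plus strand), alpha-2-macroglobulin, a broad protease trap. It stood at 242, 134, 126 and 123 in control and 17.7, 4.80, 5.75, 9.36 and 6.97 in arthritis (log2 fold change -4.06, SE 0.57, limma adjusted p = 0.00166). Ltbp4 (mm10 chr7:27305136-27337692, minus strand), a matrix protein that stores latent TGF-beta and helps elastic fibres form, stood at 1008, 1224, 1340 and 1554 in control and 325, 358, 304, 261 and 435 in arthritis (log2 fold change -1.93, SE 0.22, limma adjusted p = 0.000439). Neither gene overlapped between the groups, and each kept its call without any 1 WT library and with sex as a term (limma adjusted p = 0.024 and 0.0091). Ltbp4 was the only called gene of 18 in the elastic fibre and TGF-beta list, whose median was 0.30, and none of 19 collagen genes was called (median 0.24). Notch3, a receptor of pericytes and vascular smooth muscle, stood at 460, 641, 633 and 648 in control and 256, 304, 192, 212 and 268 in arthritis (log2 fold change -1.28, SE 0.22, limma adjusted p = 0.00567). None of 18 endothelial genes was called (median -0.06).

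Nerve, bone and lipid genes fell in part. Of 18 Schwann cell genes 2 fell, 16 had a negative log2 fold change and 6 lay wholly below control (median -1.07), beside 1.58% of all genes tested that fell and 4.71% that lay wholly below control. Sox10 (mm10 chr15:79154908-79165240, minus strand), the regulator of Schwann cells, stood at 202, 276, 383 and 304 in control and 23.7, 136, 16.1, 11.1 and 75.4 in arthritis (log2 fold change -3.02, SE 0.64, limma adjusted p = 0.0173). Replicate 2 held the most Sox10 among arthritis libraries, yet less than any control. Bglap, osteocalcin of mature osteoblasts, stood at 106, 86.6, 105 and 131 in control and 16.3, 18.8, 47.1, 5.1 and 23.4 in arthritis (log2 fold change -2.50, SE 0.66, limma adjusted p = 0.0411), the only call among 17 bone-forming genes (median -0.80), and its paralog Bglap2 may share its reads. None of 13 osteoclast genes (median -0.32) or 21 cartilage genes (median -0.54) was called. Notum and Sfrp4, which both block Wnt signals, fell among 12 Wnt antagonists (median -0.92): Notum stood at 16.2 to 39.4 in control and 0.851 to 8.24 in arthritis. In arthritis replicates 3 and 4 Notum, at 2.30 and 0.851, lay below 3 reads (3.45 and 2.55 normalized counts there). Fasn, fatty acid synthase, stood at 240, 359, 313 and 428 in control and 81.3, 178, 140, 82.5 and 96.3 in arthritis (log2 fold change -1.57, SE 0.26, limma adjusted p = 0.00567). Fasn and Srebf2, a regulator of sterol synthesis, were the called 2 of 20 lipid synthesis genes, 19 of which had a negative log2 fold change (median -0.60). Fasn kept its call without any 1 WT library, while the others of this paragraph lost theirs without control replicate 3 and at least 1 other single WT library, arthritis replicate 4 among them. None was called with sex as a term (limma adjusted p 0.053 to 0.30). The log2 fold change with that term was -2.86 for Sox10, -3.30 for Bglap and -3.17 for Notum (-2.58 without it). The median of the lipid synthesis list was -0.40 with it.

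Semaphorins and their receptors, the family of the gene deleted in the other mice, fell more often than they rose. Of 29 tested 4 fell and 1 rose, and 24 had a negative log2 fold change (median -0.48). The transmembrane ligand Sema6c stood at 54.4 to 70.8 in control and 22.2, 45.4, 16.1, 11.9 and 19.0 in arthritis (log2 fold change -1.55, limma adjusted p = 0.0161). Sema4b, another transmembrane ligand, stood at 112 to 190 in control and 28.1, 88.1, 70.1, 56.1 and 105 in arthritis (log2 fold change -1.26, limma adjusted p = 0.0282). Plxna1, a receptor for class 3 semaphorins together with neuropilins, stood at 226, 145, 190 and 167 in control and 76.9, 70.7, 122, 123 and 101 in arthritis (log2 fold change -0.89, limma adjusted p = 0.0129). These 3 did not overlap between the groups. Plxnb1 fell by 1.41 on the log2 scale although arthritis replicate 1, at 66.5, lay within its control range, and Plxnc1, a plexin of immune cells, rose by 1.32. All 5 calls ended without control replicate 1, and with sex as a term Plxna1 and Sema4b were called (limma adjusted p 0.049 for both) while Sema6c, Plxnb1 and Plxnc1 were not.

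Several other genes that fell held under each setting used for the core. Setd1b, a histone H3 lysine 4 methyltransferase, stood at 451, 419, 456 and 466 in control and 223, 210, 206, 184 and 195 in arthritis (log2 fold change -1.14, SE 0.14, limma adjusted p = 0.00047). Mll2, of the same enzyme family, Mark2, a kinase of microtubule-binding proteins, and Epn1, an endocytic adaptor, fell by 1.13, 0.94 and 0.73 on the log2 scale. Neat1, the long noncoding RNA that builds paraspeckles, stood at 3637, 3461, 3709 and 3333 in control and 2216, 1399, 861, 1130 and 1324 in arthritis (log2 fold change -1.42, SE 0.20, limma adjusted p = 0.00166). Lars2, the mitochondrial leucyl-tRNA synthetase, stood at 767, 670, 630 and 640 in control and 118, 224, 299, 284 and 259 in arthritis (log2 fold change -1.58, SE 0.22, limma adjusted p = 0.00166). Tcf7l1, a Wnt pathway repressor, stood at 829 to 1247 in control and 167, 414, 501, 402 and 548 in arthritis. All arthritis libraries lay below all controls for these genes, and replicate 1 was the lowest for Lars2 and Tcf7l1 and the highest for Neat1. After the GC trend was removed Epn1 was not called (limma adjusted p = 0.088), and Mll2 had no transcript to be fitted.

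The genes that moved differed in transcript length and base composition. The longest transcript had a median length of 2010 bases and 46.7% GC among genes that rose, and 4219 bases and 56.9% GC among genes that fell, against 3299 bases and 49.8% over all tested (94.5% had a value). Over quintiles of transcript GC, from low to high, the median log2 fold change was 0.17, 0.07, -0.01, -0.14 and -0.29, and in female libraries only, where the WT arthritis group is 1 library, it ran from 0.29 to -0.40. Genes that rose made up 4.60% of the lowest quintile and 0.996% of the highest, and genes that fell 0.0383% and 4.98%. With each library's trend on GC removed, 389 genes were called, 308 higher and 81 lower, of which 281 were among the 582. Of 107 named called genes with a transcript 78 kept the call. Il1b, Cxcl5, Ccl6, Cxcr2, Clec4a2, Notum, Bglap, Dbp, Srebf2, Sema6c and Sema4b were among those that lost it, while Rps12, Errfi1, Nr1d1, A2m and Ltbp4 kept it.

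**Figure D4:**
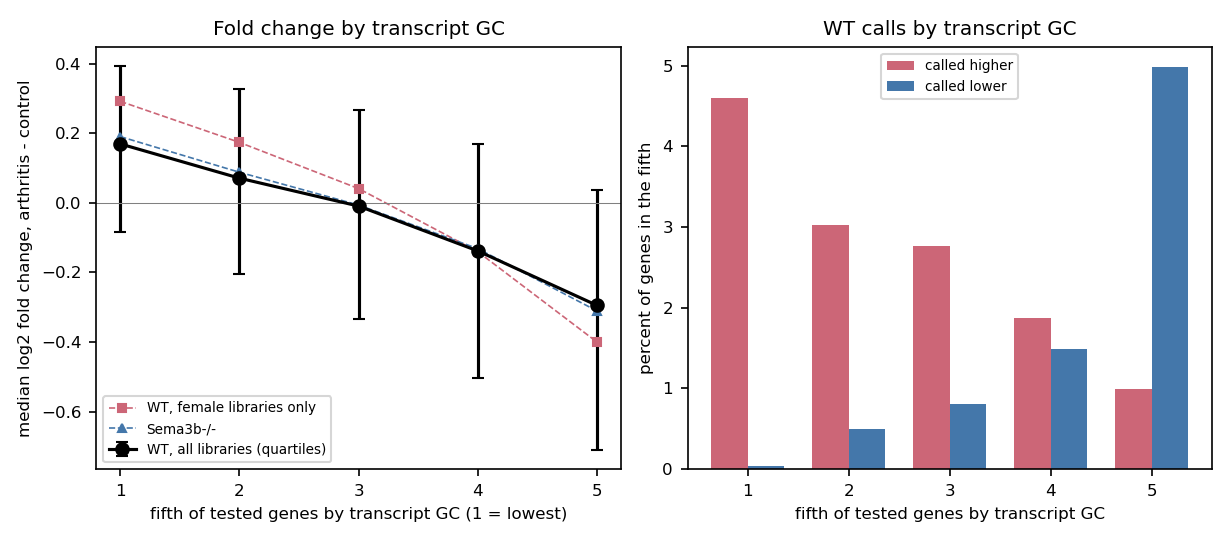
Left, median log2 fold change, arthritis minus control, in quintiles of tested genes by the GC of their longest transcript, for WT (black, bars are quartiles over genes), for WT in female libraries only (red) and for Sema3b-/- (blue). Right, percent of each quintile called higher (red) or lower (blue) in WT. The WT median runs from 0.17 in the lowest quintile to -0.29 in the highest.

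Other tissue lists held few or no called genes. All 22 muscle genes had a negative log2 fold change (median -0.79) with none called: the list took 3.13% to 3.92% of normalized counts in control and 3.79%, 4.59%, 0.354%, 1.44% and 1.88% in arthritis. All 21 epidermal genes were likewise negative (median -1.74) with none called, at 1.90% to 2.83% in control and 0.593%, 2.69%, 0.0695%, 0.379% and 1.16% in arthritis. Replicate 2 lay within or above the control range of both lists, and replicate 3 was the lowest for both. The part of these tissue shares in the changes of other genes was not tested. All 12 B cell genes were negative with none called (median -0.92), all 15 mitochondrially encoded genes were positive with none called (median 0.57), and none was called among 11 T and NK cell genes (median 0.10), 14 adipocyte genes (-0.66), 12 tendon genes (0.65), 10 erythroid genes (-0.33), 20 cell cycle genes (0.37), 20 nuclear genes of oxidative phosphorylation (-0.14), 19 hypoxia genes (-0.12) or 13 muscle atrophy genes (0.06). In the hair follicle, sweat gland and melanocyte list Hr, a corepressor of the hair cycle, fell, the only call of 11 (median -1.24), and in the mast cell list Hdc, histidine decarboxylase, rose, the only call of 12 (median -0.15). Both calls ended with sex as a term and without some single WT libraries.

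Arthritis libraries differed from each other more than controls did. The median SD of log2 values was 0.41 among arthritis libraries and 0.25 among controls, and it was larger in arthritis for 75.3% of genes. Among abundant genes the widest spread lay in hair keratin-associated proteins: Krtap22-2 stood at 1854, 1979, 4.60, 147 and 980 in arthritis against 1663 to 3242 in control, and Krtap20-2 was listed at 0 in replicate 3. The female arthritis library, replicate 1, lay above all 4 controls for 344 of the 364 genes that rose and below them for 214 of the 218 that fell, beside 32% and 30.9% of all genes tested. These genes were chosen with replicate 1 in the fit, so the counts describe that library and are no separate test. The median log2 difference from control of genes that rose was 0.54, 0.49, 0.84, 0.89 and 0.72 in replicates 1 to 5, and of genes that fell -0.84, -0.75, -0.94, -1.01 and -0.85. Over all 18 libraries sex was called for 7 genes, Xist, Ddx3y, Eif2s3y, Uty, Kdm5d, Eif2s3x and Igf2, and none of them is among the 582. Genes that differ strongly by sex spread widely within groups that hold both sexes, which weakens their call without a sex term. The 5 genes of the sex-linked list had log2 fold changes from -4.44 to 6.67 with none called. Their absence therefore does not show that the 582 are free of sex effects.

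The arthritis effect in WT was set beside that in Sema3b-/-, where 1710 genes (12.4%) were called. The data header of Sema3b-/- arthritis replicate 5 ends in Ct although its title says arthritis, and it was used as arthritis. Without that library 454 genes were called in WT. The 2 effects share no library. Both called 382 genes, which is 65.6% of the WT calls and 22.3% of the Sema3b-/- calls, and 569 of the 582 WT calls (97.8%) had the same sign in Sema3b-/-, against 74.2% of all genes tested. In Sema3b-/- too every control title begins with MI, and the titles of arthritis replicates 3 to 5 begin with Joint. From the lowest to the highest quintile of transcript GC, the median log2 fold change ran from 0.19 to -0.31 in Sema3b-/-. In WT it ran from 0.17 to -0.29. The part of titles and GC in the shared signs was not tested. By limma, no gene passed for a difference between the effects (663 had an unadjusted p under 0.05, and the smallest adjusted p was 0.449), while DESeq2 called 8. Among early response genes, Fosb had a log2 fold change of 3.75 in WT and 0.90 in Sema3b-/-, Nr4a1 2.23 and -0.20, Atf3 2.32 and 0.90, and Errfi1 1.52 and 0.19. Named inflammatory genes differed in both directions: Il1b had 3.37 in WT and 5.01 in Sema3b-/-, Ccl8 2.96 and 4.67, and Mmp3 2.96 and 5.33, while Cebpd had 1.41 and 0.31, Nfkbia 0.82 and 0.25, and Ptgs2 3.16 and 1.58. None of these differences passed the test, so they are values only. Libraries read as male made up 2 of 4 in Sema3b-/- control but 1 of 5 in Sema3b-/- arthritis. In WT they made up 0 of 4 in control and 4 of 5 in arthritis, so the share of males moved in opposite directions. The fold changes above carry no term for sex. With that term limma also passed no gene for a difference between the effects. The part of sex in single differences was not tested.

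**Figure D5:**
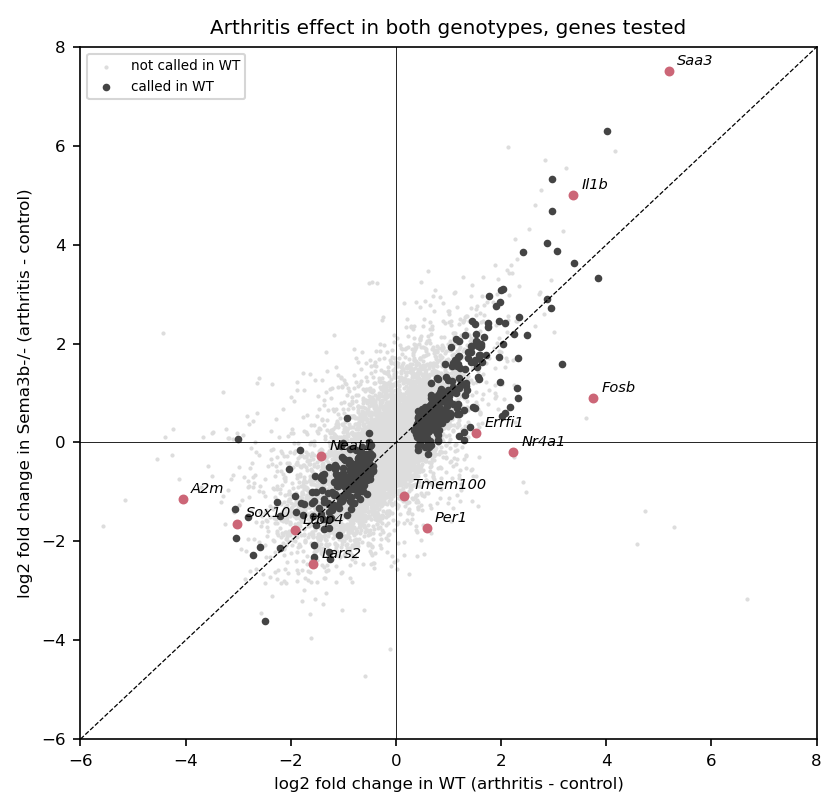
Log2 fold change, arthritis minus control, in WT (x axis) against that in Sema3b-/- (y axis), 1 point a tested gene, with genes called in WT dark, chosen genes red and named, and equality as a dashed line. Of the 582 genes called in WT 569 lie on the same side of 0 in both, and Errfi1 and Nr4a1 lie near 0 on the Sema3b-/- axis.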

How the data were processed

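Forepaw RNA of WT control (n = 4) and WT arthritis (n = 5) mice was sequenced by CEL-seq with paired ends on a NextSeq500, per the labels' protocols. BWA, DESeq2 1.32 and mm10 are named in the submitters' processing notes. Not given in the sources used here are the counting tool, the annotation and any use of molecular barcodes. The authors deposited a signal, the read count of each gene over the size factor of its library (a normalized count), for 18585 genes and 18 libraries. The deposited table of the authors' comparison holds their log2 fold change, p-value, score and adjusted p-value. It was used for its count of calls.

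Rows of 7 spike-ins (5.5e-06% of values) were left out, and 26 gene names turned to dates were restored. Whole reads were recovered for 100% of values within 0.02 of a read. limma-trend (limma 3.58.1, R 4.3.3), with robust empirical Bayes and 4 group means over 18 libraries, was fitted to log2 of the value plus 1, so changes of low genes are understated. Genes at 10 or more in at least 4 libraries were tested, and calls were made at a p under 0.05 after Benjamini-Hochberg adjustment. The design planned limma for normalized values. edgeR 4.0.16 and DESeq2 1.42.0 were run on the recovered reads as alternatives. In data simulated for this comparison over 13809 genes, limma recovered 35.2% of 108 genes changed by 1 on the log2 scale and 80.4% of 92 changed by 2, with 6 false calls. The simulation gave each gene the same spread in all groups and no effect of sex, tissue share or GC. Its false calls therefore do not measure the error rate in the real libraries.

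The labels do not say outright that libraries are separate animals, so p-values measure only the spread between these libraries. No library was a duplicate: between libraries of a group, chi-square over its degrees of freedom was 10.1 to 213.1, above sampling noise. A count of 0 allows 3 reads, which is 1.31 to 4.44 normalized counts in the WT libraries, for counting error only.

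The members and the 47 gene lists were chosen with earlier results of these data known. Named genes are the 15 highest and the 15 lowest called genes that are abundant and do not overlap, up to 20 called under every core setting, up to 6 called members of each list, or its 3 lowest p where none is called, the 10 with the widest spread in arthritis, and the 5 lowest interaction p, with Sema3b and sex-linked genes as checks. Promoter windows and lengths came from RefSeq (GRCm38.p6) and GENCODE transcripts. Settings with sex as a term and a WT library left out together, edgeR with sex, totals without mitochondrial genes, and a GC trend removed were added after the data were seen. Some genes are not reported here.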

Additional observations from a re-analysis of the deposited data

Results flagged for a closer look

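Of 110 groups of 4 or 5 libraries tested for a library that stands apart, 8 held one, and chance alone flags about 1 in 20. In WT control, A2m was highest in replicate 1, at 242 normalized counts against 123 to 134 in the others. Bcam, a laminin receptor, was highest in replicate 4, at 540 against 439 to 452. Notch3 was lowest in replicate 1, at 460 against 633 to 648. Erythroid genes took 0.766% of normalized counts in control replicate 1 against 0.306% to 0.356%, mitochondrially encoded genes 21.1% in replicate 2 against 19.9% to 20%, and cartilage genes 1.24% in replicate 3 against 1.04% to 1.07%. In WT arthritis, Apold1, an early response gene of endothelium, was highest in replicate 3, at 1470 against 250 to 600. Ppp1r13l, an inhibitor of p53 and NF-kB, was highest in replicate 2, at 172 against 82.8 to 98.9. Notch3 and A2m kept their calls in arthritis without control replicate 1, Apold1 lost its call without control replicate 3, and Ppp1r13l and Bcam lost theirs without each of the WT libraries except arthritis replicate 2.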

How the results depend on the processing

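Depth limits genes near 3 reads, and 5 against 4 libraries limit small changes. Against 582 genes called, 271 were called from the 9 WT libraries alone, 2525 with array weights, 133 with sex as a term, 58 in female libraries only (where WT arthritis is 1 library, replicate 1, assumed to vary like the other groups), 646 by edgeR, 104 by edgeR with sex as a term, 1292 by DESeq2, 389 with the GC trend removed (308 higher, 81 lower) and 68 with that and sex. Replicate numbers did not pair the WT libraries (correlations of same-numbered deviations 0.066, 0.042, 0.122 and 0.127), and the replicate block left 196. Leaving out 1 library gave 13 to 1112 calls, the lowest with sex as a term. Scaling to totals without mitochondrial genes gave 500 (162 higher, 338 lower, against 364 and 218) and moved the median of all genes to -0.12. The interaction, 0 by limma, was 6 in female libraries only, with that 1 library, and 8 by DESeq2. Of 7669 values under alternatives, for 171 named genes, 5771 kept direction and side of the threshold, 1764 lost the call, 103 gained it and 31 changed sign. Only the 110 called genes could lose a call, and genes that stayed uncalled are counted as kept, so these shares do not measure how stable the calls are. Without any 1 of the 18 libraries 42 of 110 named calls held, and 30 with sex as a term; the losses without WT control replicates 1 to 4 were 54, 49, 62 and 49, and without WT arthritis replicates 1 to 5 they were 4, 0, 42, 55 and 39. Against that 1 female arthritis library, log2 fold changes that changed sign were Cebpd -0.0088, Plxnb1 0.0064, Tfrc 0.017, Ndufs1 0.089, Foxo1 0.66, H2-Aa -0.59, H2-DMb1 -0.22, Cdk1 -0.25, Cfp -0.072 and Foxp3 -0.12. With sex as a term Atp6v0d2 was at -0.077, by edgeR with sex Atp6v0d2 was at -0.052 and Chrnd at -0.055, and with GC and sex Ndufv1 was at 0.089 and Atp6v0d2 at -0.28. Leave-one-out fits were run without and with sex as a term. Over both sets of fits the ranges that crossed 0 were Slc4a1 -1.36 to 0.038, Lipe -0.92 to 0.086, Sema3b -0.56 to 0.22, Foxo1 -0.67 to 0.029, Tmem100 -0.051 to 0.37, Lrrn4cl -0.14 to 0.26, Atp6v0d2 -0.28 to 0.63 and Chrnd -0.61 to 1.71. Each of these changes of sign arose in a fit with sex as a term. Leaving out a library without that term changed no sign. The cause was not tested.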
